A study of Mus musculus with 2 samples.

Results

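The receptors described are 9 chemokine receptors of T and myeloid cells, Ccr1, Ccr2, Ccr4, Ccr9, Ccr10, Cxcr4, Cxcr6, Cx3cr1 and Ccrl2. They were taken by gene symbol, and 16 probe sets stood for them, out of 20380 probe sets and 12393 genes with exactly 1 symbol on the array. RNA came from splenic CD4+ T cells of DBA/1 mice, which are susceptible to arthritis after immunization with glucose-6-phosphate isomerase (GPI), and of C57BL/6 mice, which are resistant. Cells of both strains were isolated by magnetic sorting on day 7 after GPI, so both groups were immunized. Each strain was measured on 1 array. How many mice were pooled into each RNA sample, and how old they were, is not stated in the labels. With 1 array per strain there was no test and no replicate error, and every difference below compares these samples, not the strains at large.

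Chemokine receptors are G protein-coupled receptors that read gradients of secreted chemokines and so direct where leukocytes go. Among CD4+ T cells, CCR4 and CCR10 are associated with skin homing, CCR9 with homing to the small intestine, CXCR6 with effector cells in inflamed tissue, and CXCR4 with retention in bone marrow and lymphoid organs. CCR1, CCR2 and CX3CR1 are best known from monocytes and neutrophils, and subsets of T cells also carry them. CCRL2 is an atypical receptor that binds chemerin and does not itself give the usual G protein signal.

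Signals are MAS5 probe set intensities in arbitrary units. A signal at or under the median of its array (37.6 for DBA/1 and 38.0 for C57BL/6) was treated as not above background and set to that median, called the floor here. A fold with 1 side under the floor is a bound and is written "at least". Of the 9 receptors, 6 had a signal over the floor on at least 1 array. Ccrl2 and Ccr1 were higher in DBA/1 by 2-fold or more, Ccr9 was lower there by 2-fold or more, and Ccr2, Cxcr4 and Cxcr6 lay within 2-fold. Of all 6936 genes with a signal above the floor, 3.84% passed 2-fold upward in DBA/1 and 1.90% passed it downward. After median centring these shares were 2.91% and 2.41%, and the same 3 receptors were past 2-fold. Where the higher signal of a gene also had to reach percentile 75 of its array, 5 receptors were left, with Ccrl2 higher and Ccr9 lower, against shares of 3.98% and 1.99% of 3915 genes. The median log2 ratio (DBA/1 over C57BL/6) was 0.31 over the 6 receptors, with 3 above 0 and 3 below 0, against 0.10 over all genes tested, of which 60.6% lay above 0. The receptors thus went both ways, and their median describes none of them.

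**Figure D1:**
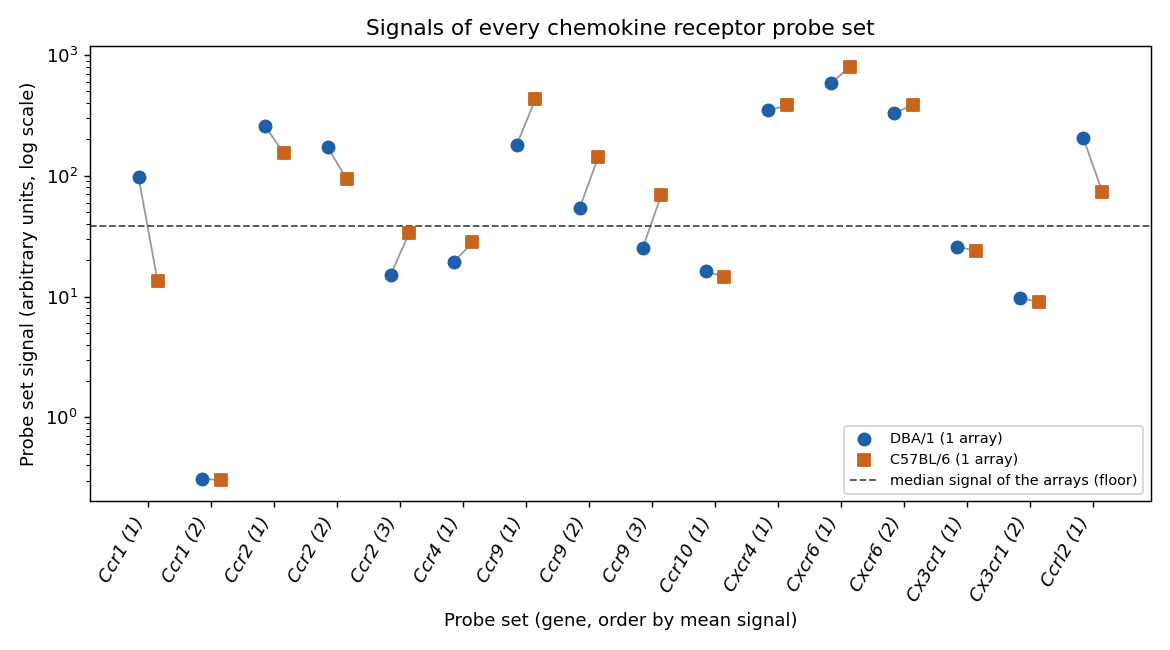
Signal (log axis, arbitrary units) of each of the 16 probe sets of the 9 receptors in DBA/1 (circles) and C57BL/6 (squares), 1 array each; numbers in brackets order the probe sets of a gene by mean signal. Ccrl2 and the upper probe sets of Ccr1 and Ccr2 were higher in DBA/1, the 3 probe sets of Ccr9 were lower in DBA/1, and 6 probe sets lay under the floor (dashed) on both arrays.

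The sorted samples read alike for T cell genes and differently for genes of other spleen cells. Cd4, which the sort selects for, gave 913 in DBA/1 and 857 in C57BL/6. Cd3e, a chain of the T cell receptor complex, gave 747 in DBA/1 and 791 in C57BL/6. H2-Ea, which is not expressed in C57BL/6 mice, read 447 in DBA/1 and 2.17, under the floor, in C57BL/6, as the C57BL/6 label calls for. The summed signal of 7 T cell markers was 11295 in DBA/1 and 11573 in C57BL/6, with a median log2 ratio of -0.044. Neutrophil markers summed to 34170 in DBA/1 and 10580 in C57BL/6, and all 9 that were usable were at least 2-fold higher in DBA/1. Monocyte and macrophage markers, B cell markers and dendritic cell markers summed to 2.26, 2.28 and 2.59 times as much in DBA/1 as in C57BL/6, and all their usable genes (9, 6 and 6) were higher in DBA/1. CD8 T cell and natural killer cell markers summed to 0.372 and 0.479 times as much, with all 4 and 3 of 4 usable genes lower in DBA/1. The exception was Gzmb (granzyme B), at 127 in DBA/1 and 67.8 in C57BL/6 (log2 ratio 0.91). Cxcr2 of the neutrophil list, Fcgr1 of the monocyte list, Pax5 of the B cell list, Xcr1 of the dendritic cell list and Ncr1 of the natural killer list were under the floor in both samples. Genes at least 2-fold higher in DBA/1 were, for neutrophils, S100a8, S100a9, Ltf, Camp, Ngp, Lcn2, Elane, Mpo and Prtn3, and for monocytes and macrophages, Lyz2, Itgam and C1qc. For B cells they were Cd79a, Cd79b, Ms4a1, Cd22, Cr2 and Blk, and for dendritic cells Itgax, Cd209a, Fscn1 and Cst3. After median centring 2 of the monocyte, 4 of the B cell and 3 of the dendritic cell genes were past 2-fold, and all 9 neutrophil genes were. Genes at least 2-fold lower in DBA/1 were Cd8b1 and Nkg7 for CD8 T cells and Klrd1, Klrk1 and Il2rb for natural killer cells. These genes are named by their brightest probe set. The second probe sets of Il2rb (log2 ratio -0.46) and Ms4a1 (0.88) were under 2-fold, and that of Cd22 (1.64) was past it. Another Fscn1 probe set gave a bound of 0.85, and the remaining Fscn1 probe sets were under the floor in both samples. The T cell marker furthest apart was Lat, an adaptor of T cell receptor signalling (log2 ratio -0.15). In such bulk RNA, fewer cells of a type and less RNA per cell cannot be told apart.

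The 3 receptors past 2-fold are shown first by their promoters, as the stretch of DNA from which each of these transcripts starts. The sequences are RefSeq's (build GRCm38.p6, the C57BL/6J genome), 250 bases before to 50 after the annotated start, 5' to 3' on the strand of the gene; the DBA/1 sequence was not used here. They lie at chr9:111057469-111057768 (minus strand, the most upstream of the annotated starts), chr9:123968643-123968942 (minus strand) and chr9:123766961-123767260 (plus strand). Capitals mark matches, on either strand, to the core motifs of RUNX factors (TGTGGT), PU.1 and related ETS factors (GAGGAA), E-box factors (CAGCTG) and AP-1 (TGANTCA), and to the NF-kB consensus.
Ccrl2 promoter: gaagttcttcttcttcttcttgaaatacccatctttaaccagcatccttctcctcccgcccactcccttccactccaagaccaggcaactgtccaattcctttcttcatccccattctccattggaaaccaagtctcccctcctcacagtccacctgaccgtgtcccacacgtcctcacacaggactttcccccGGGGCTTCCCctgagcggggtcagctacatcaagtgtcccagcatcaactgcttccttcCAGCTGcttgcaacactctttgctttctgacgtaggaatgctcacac
Ccr1 promoter: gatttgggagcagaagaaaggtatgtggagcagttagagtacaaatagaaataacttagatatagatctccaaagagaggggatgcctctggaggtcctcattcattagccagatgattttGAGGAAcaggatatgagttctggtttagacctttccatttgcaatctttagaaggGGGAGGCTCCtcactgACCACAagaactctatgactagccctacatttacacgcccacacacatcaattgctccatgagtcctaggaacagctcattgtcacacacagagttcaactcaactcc
Ccr9 promoter: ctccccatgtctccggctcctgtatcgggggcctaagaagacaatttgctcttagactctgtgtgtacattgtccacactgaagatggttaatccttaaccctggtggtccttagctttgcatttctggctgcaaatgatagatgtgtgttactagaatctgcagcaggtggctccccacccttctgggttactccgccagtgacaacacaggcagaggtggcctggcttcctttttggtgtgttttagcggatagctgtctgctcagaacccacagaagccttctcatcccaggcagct

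The Ccrl2 promoter held 1 match to the NF-kB consensus, from -56 to -47 relative to the start, and an E-box from base 4 to base 9 after it. The Ccr1 promoter held 1 match each to the ETS, NF-kB and RUNX motifs, and none of these overlapped. The Ccr9 promoter held no match, which says only that these letters are not in this window. Among the first promoters of 27025 genes, 8.19% held an NF-kB match, 16.1% the E-box, 16.9% the RUNX motif, 28.3% the ETS motif and 7.92% the AP-1 motif. The matches are a description of the reference sequence and were set against no binding data.

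Ccrl2, the chemerin-binding receptor, read 204 in DBA/1 and 73.7 in C57BL/6 on its only probe set (1427736_a_at). Both signals were over the floor, and the difference was 2.77-fold (log2 ratio 1.47). Among 6402 genes measured above the floor on both arrays it ranked 62 from the highest ratio. Its C57BL/6 signal was 1.94 times the floor, so that side was close to background. Ccrl2 messenger RNA is known from activated neutrophils, macrophages and B cells, whose markers were higher in the same DBA/1 sample; their part in the result was not tested.

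Ccr1, a receptor for CCL3 and CCL5 carried by neutrophils and monocytes, read 96.8 in DBA/1 and 13.4 in C57BL/6 on probe set 1419609_at. The C57BL/6 signal was under the floor, so the DBA/1 signal was at least 2.54-fold higher. Without a floor the quotient of the same signals was 7.20, which rests on a signal at background. The other probe set of Ccr1 (1419610_at) read 0.312 in DBA/1 and 0.301 in C57BL/6 and gave no measurement on either array. Only 1 of the 2 probe sets therefore carries the Ccr1 difference, and with the floor at percentile 60 its log2 ratio was 0.42, under 2-fold.

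Ccr2, the CCL2 receptor that releases monocytes from bone marrow and also marks some effector T cells, was higher in DBA/1 on both probe sets with usable signal. Probe set 1421186_at read 260.5 in DBA/1 and 155 in C57BL/6 (1.68-fold, log2 ratio 0.74). Probe set 1421187_at read 173 in DBA/1 and 94.6 in C57BL/6 (1.82-fold, log2 ratio 0.87). The remaining probe set, 1421188_at, was under the floor on both arrays, at 15.2 in DBA/1 and 33.9 in C57BL/6. Ccr2 thus stayed under 2-fold, in the same direction as the median of the monocyte and macrophage markers (log2 ratio 0.86). Among those markers, lysozyme (Lyz2) read 2974 in DBA/1 and 948 in C57BL/6, and Fcgr1 lay under the floor in both samples. The part of monocytes in the Ccr2 difference was not tested.

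Cx3cr1, the fractalkine receptor of patrolling monocytes and of cytotoxic lymphocytes, was under the floor in both samples. Its probe sets read 26.0 and 9.78 in DBA/1, against 23.7 and 8.97 in C57BL/6. No difference could be measured at these signals.

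Among receptors known for T cell homing, Ccr9 was lower in DBA/1 on every one of its 3 probe sets. Probe set 1427419_x_at read 179 in DBA/1 and 431 in C57BL/6 (2.40-fold higher in C57BL/6, log2 ratio -1.26). Probe set 1421920_a_at read 53.8 in DBA/1 and 144 in C57BL/6 (2.68-fold higher in C57BL/6, log2 ratio -1.42). Probe set 1421919_a_at read 25.1 in DBA/1, under the floor, and 69.5 in C57BL/6, at least 1.85-fold higher there. With the floor at percentile 60 this probe set was under it on both arrays, and 1421920_a_at was under 2-fold (log2 ratio -0.96). The 2 log2 ratios measured on both sides differed by 0.16. Over 2325 genes with such a pair of probe sets the SD of that difference was 0.43, a spread that comes from probes and leaves out any variation among animals. By its brightest probe set Ccr9 ranked 54 from the lowest ratio among the 6402 genes. The x in the name of that probe set marks possible cross-hybridisation, and neither of the other probe sets carries that mark.

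Ccr9 is also a marker of plasmacytoid dendritic cells and is carried by CD8 T cells in the intestine. The 4 other plasmacytoid dendritic cell markers measured were all lower in DBA/1, their median log2 ratio being -0.48, and none was past 2-fold. Siglech, also on that list, was not measured. All 4 CD8 T cell markers were lower as well, with a median of -1.45. Cd8b1, the CD8 beta chain, read 16.1 in DBA/1, under the floor, and 199 in C57BL/6. Cd8a, the CD8 alpha chain, differed least of the 4, at 52.9 in DBA/1 and 78.0 in C57BL/6 (log2 ratio -0.56). The part of these cells in the Ccr9 difference was not tested.

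Cxcr6, the CXCL16 receptor of effector T cells and natural killer T cells, was slightly lower in DBA/1 on both of its probe sets. Probe set 1425832_a_at read 590.2 in DBA/1 and 801 in C57BL/6 (1.36-fold higher in C57BL/6, log2 ratio -0.44), and 1422812_at read 329.9 in DBA/1 and 389 in C57BL/6 (1.18-fold higher in C57BL/6, log2 ratio -0.24). The probe sets differed from each other by 0.20, and the probe error of 1 probe set was 0.31, so the lower signal was the same in direction on both and not beyond that error on 1422812_at as deposited. After median centring, quantile normalization or lowess the log2 ratio of 1422812_at was -0.32, -0.35 and -0.35, just past that error. The error is 1 SD between probe sets and leaves out variation among arrays and animals. The median of the T cell markers was -0.13, -0.22 and -0.20 under the same rescalings. Cxcr4, the CXCL12 receptor, read 349 in DBA/1 and 382 in C57BL/6 on its only probe set (log2 ratio -0.13), a difference smaller than the probe error.

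Ccr4 and Ccr10, the skin-homing receptors, were under the floor in both samples. Ccr4 read 19.2 in DBA/1 and 28.1 in C57BL/6, and Ccr10 read 16.3 in DBA/1 and 14.4 in C57BL/6. Signals at this height do not show that the transcripts are absent.

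**Figure D2:**
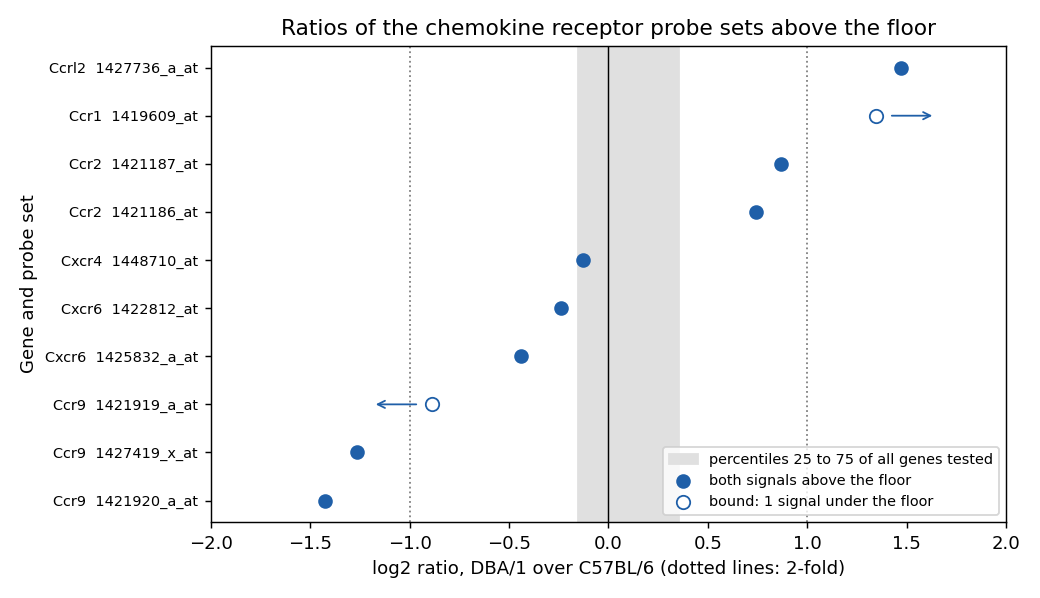
log2 ratio of DBA/1 over C57BL/6 for the 10 probe sets with a signal above the floor; open circles with arrows are bounds, dotted lines mark 2-fold, and the grey band runs from percentile 25 to percentile 75 of all genes tested. Ccrl2 and Ccr1 lie right of the 2-fold line, 2 of the 3 Ccr9 probe sets lie left of it, and probe sets of 1 gene lie beside each other.

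Other chemokine receptors went both ways. Of 15 measured, 6 had a signal over the floor, 4 of them with a log2 ratio above 0 and 2 below. Their median was 0.50. These counts and the median include Gpr35, which is not named as a chemokine receptor. Of all genes tested, 60.6% lay above 0, 3.84% passed 2-fold upward in DBA/1 and 1.90% passed it downward. Of the 6 receptors, 1 passed 2-fold upward in DBA/1 and none passed it downward. That one was Ccr6, the CCL20 receptor of Th17 cells and B cells, which read 605 in DBA/1 and 165 in C57BL/6 (log2 ratio 1.88). Cxcr5, the follicular homing receptor of B cells and follicular helper T cells, read 264 in DBA/1 and 155 in C57BL/6 (log2 ratio 0.77). Gpr35, a G protein-coupled receptor that myeloid cells carry, read 101 in DBA/1 and 53.8 in C57BL/6 (log2 ratio 0.90), and the atypical receptor Ackr1 was near the floor (log2 ratio 0.23). Cxcr3, which marks Th1 cells and cytotoxic lymphocytes, read 428 in DBA/1 and 713 in C57BL/6 (log2 ratio -0.74). Ccr7, the lymph node homing receptor of naive T cells, read 870.0 in DBA/1 and 1001 in C57BL/6 (log2 ratio -0.20). Ccr3, the eosinophil eotaxin receptor, lay under the floor in both samples.

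Ligands were mostly at background in these sorted cells. Of 18 ligand genes of the receptors, 12 were under the floor on both arrays, among them Ccl17 and Ccl22 (ligands of CCR4), Ccl25 (of CCR9), Cxcl12 (of CXCR4), Cx3cl1 (of CX3CR1) and the chemerin gene Rarres2. The ligand past 2-fold was Ccl5, a product of CD8 T and natural killer cells that binds CCR1, which read 256 in DBA/1 and 616 in C57BL/6 (log2 ratio -1.27). Ccl3, another CCR1 ligand, read 115 in DBA/1 and 58.4 in C57BL/6 (log2 ratio 0.98), just under 2-fold. Ccl4 (43.4 in DBA/1 and 48.4 in C57BL/6) and Cxcl16 (48.3 in DBA/1 and 43.4 in C57BL/6) were near the floor. Ccl6 and Ccl9, named with their values known, were just over the floor in DBA/1 (45.8 and 41.8) and under it in C57BL/6 (37.8 and 32.2). The CCR1 ligands Ccl3 and Ccl5, both above the floor on both arrays, therefore did not share 1 direction.

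Genes that carry the signal of chemokine receptors inside the cell, from G protein subunits to DOCK2 and RAC2, and those that end it, such as arrestins and RGS proteins, differed little. By the brightest probe set, none of the 24 usable genes was 2-fold apart. Of all genes tested, 3.84% passed 2-fold upward in DBA/1, 1.90% passed it downward and 60.6% lay above 0. The median log2 ratio of the 24 genes was 0.22, with 19 of 24 above 0. After quantile normalization 15 of 24 were above 0, with a median of 0.073. The median over all genes was 0.10 as deposited and 0.020 after quantile normalization. The size of the shift of these 24 genes as a group thus depends on the scaling. The genes furthest apart were Rgs18, an RGS protein of platelets and myeloid cells, and Rgs2. Rgs18 read 131 in DBA/1 and 76.3 in C57BL/6 (log2 ratio 0.78), and its second probe set, at 128 in DBA/1 and 61.7 in C57BL/6, was past 2-fold (log2 ratio 1.05). Rgs2 read 2150.3 in DBA/1 and 1281 in C57BL/6 (log2 ratio 0.75).

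**Figure D3:**
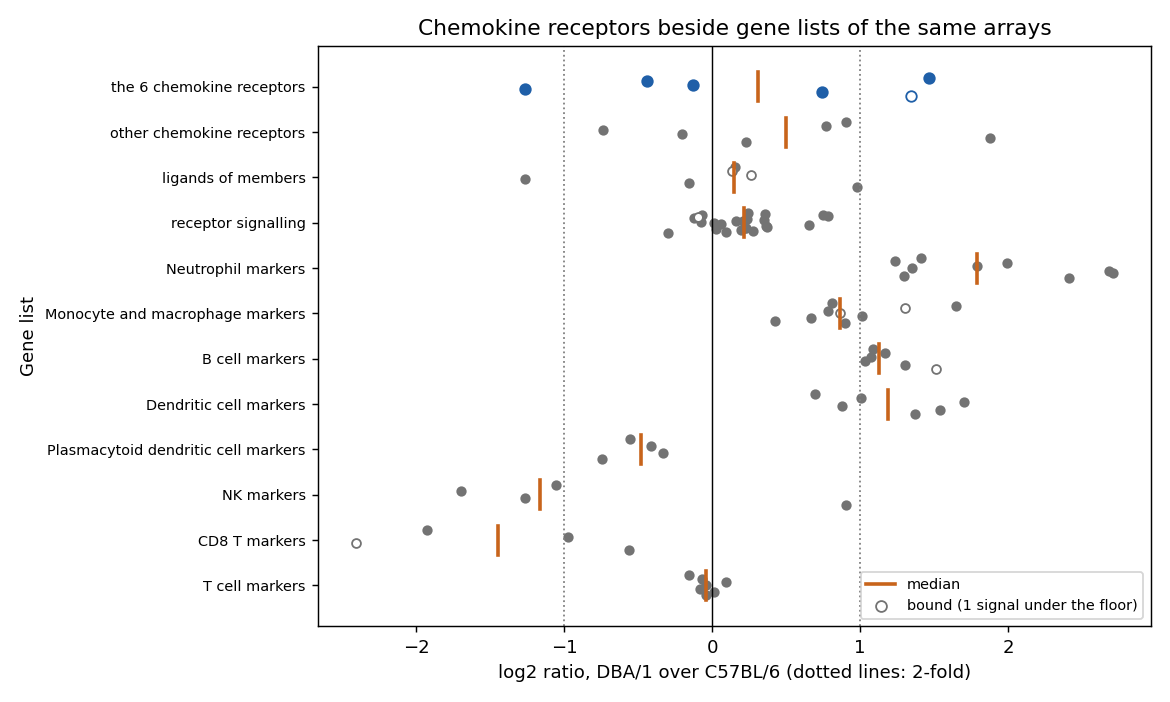
log2 ratio of DBA/1 over C57BL/6 for the 6 receptors above the floor (blue) and for genes of 11 lists (grey, without the 9 receptors), with the list median as an orange bar and open circles for bounds. The 6 receptors spread from -1.26 to 1.47, T cell markers sit around 0, neutrophil markers lie between 1.24 and 2.71, and CD8 T cell markers lie below 0.

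Of the 9 receptor genes 7 lie on chromosome 9 in RefSeq gene order, and 4 of these belong to 1 cluster, with Cxcr4 on chromosome 1 and Ccr10 on chromosome 11. From Ccr9 to Ccr2 the order of coding genes is Ccr9, Fyco1, Cxcr6, Xcr1, Ccr1, Ccr1l1, Ccr3 and Ccr2, and all 8 were measured. Ccr9 and Cxcr6 at one end were lower in DBA/1 and Ccr1 and Ccr2 at the other end were higher, while Xcr1, Ccr1l1 and Ccr3 between them were under the floor on both arrays. Fyco1, within whose annotated extent Cxcr6 lies, read 132 in DBA/1 and 126 in C57BL/6 (log2 ratio 0.070). Ccrl2 lies elsewhere on chromosome 9, next to the lactoferrin gene Ltf. Ltf, a neutrophil granule gene, read 2610 in DBA/1 and 406 in C57BL/6 (6.43-fold higher in DBA/1, log2 ratio 2.69), and the neighbour on the other side, Lrrfip2, read 114 in DBA/1 and 93.8 in C57BL/6 (log2 ratio 0.29). Among the nearest 2 measured genes on either side of each receptor (1 on the far side of Ccr2), Ltf was the only gene outside the receptor group that was at least 2-fold apart.

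**Figure D4:**
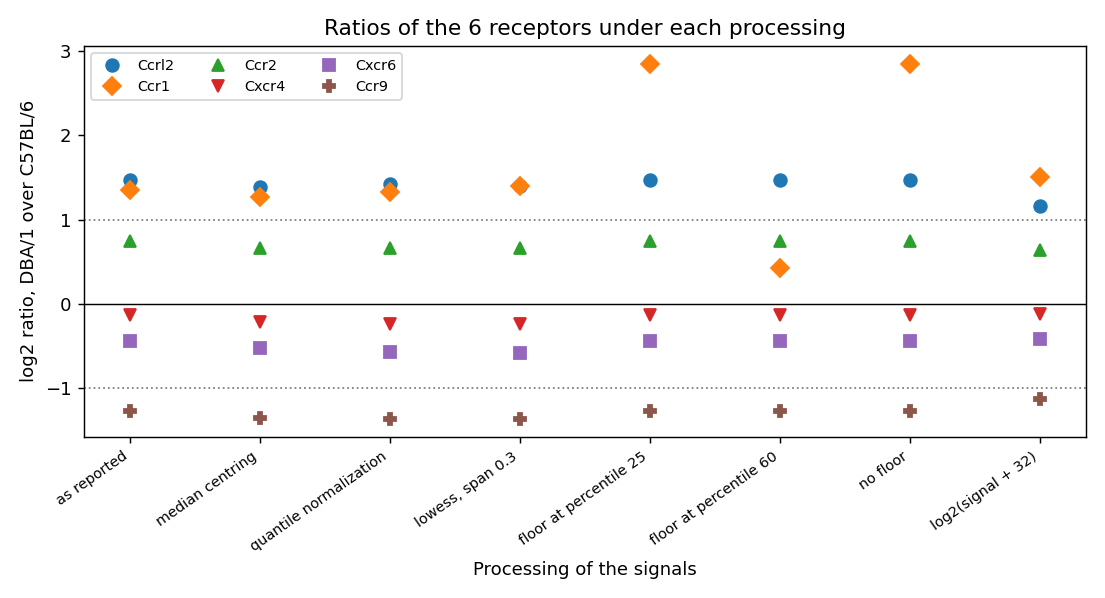
log2 ratio of DBA/1 over C57BL/6 of the brightest probe set of each of the 6 receptors under 8 ways of processing the signals; dotted lines mark 2-fold. Ccrl2 and Ccr9 stay past 2-fold in opposite directions in all 8. Other floors, or none, left both at their reported values, because their signals lay above each floor. Ccr1 runs from 0.42 with the floor at percentile 60 to 2.85 without a floor.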

How the data were processed

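The deposited table holds 1 linear intensity per probe set and array; MAS5 is named in the submitters' processing notes, and its scaling target and the genome build of the array are not stated there or in the labels. Per the labels' protocols, 3 µg of total RNA was converted with an oligo(dT)-T7 primer to biotinylated cRNA, which favours the 3' end of transcripts. With 2% trimmed from each tail, the mean signal was 146 in DBA/1 and 136 in C57BL/6; values were used as deposited, and 3 alternatives rescaled them.

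Of 22690 probe sets, 64 are controls, 20380 have 1 gene symbol, 691 several and 1555 none in the platform annotation. All 9 receptors matched a RefSeq gene (GRCm38.p6) by Entrez identifier, and 8 had a promoter there. Each gene stood by its brightest probe set (mean log2 signal over both arrays). Differences are log2 ratios after the floor. Python 3.11.15 with pandas 2.3.3 and statsmodels 0.14.6 was used, and the ratio step was tested on simulated data. Alternatives were median centring, quantile normalization, lowess (span 0.3), other floors or none, log2(signal + 32), averaging or omitting probe sets, and a minimum signal at percentile 75.

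The named genes are the 9 receptors, chosen context genes and neighbours at least 2-fold apart. From each of 13 lists they are the genes at least 2-fold apart, or otherwise the 2 furthest apart. Values are given for examples of the marker lists. Cd8a, Gzmb, Gpr35, Ackr1 and Tbx21 were chosen with their values known, and Siglech because it was not measured. Members and lists were chosen with earlier results of these data known. Erythroid markers had 2 usable genes, Car1 (log2 ratio 0.91) and Alas2 (-0.14), with a median log2 ratio of 0.39. The number of arrays limits the precision of every value.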

Additional observations from a re-analysis of the deposited data

How the results depend on the processing

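No paired analysis was possible because each strain has 1 array, and no array could be left out. The number of receptors at least 2-fold higher in DBA/1 was 2 and fell to 1 in 3 alternatives. It was 1 with the floor at percentile 60, which raises the bound on the C57BL/6 signal of Ccr1. It was 1 when the probe sets of each gene were averaged, which combines Ccr1 with its probe set under the floor, and 1 when the higher signal had to reach percentile 75, which Ccr1 does not. Only Ccrl2 remained in these cases. Other floors, or none, left its log2 ratio at 1.47, because both its signals lay above each floor. Ccrl2 has 1 probe set, so averaging or omitting probe sets could not change it. The number at least 2-fold lower was 1 in every alternative run, and it was Ccr9. Some of these alternatives could not remove Ccr9. Other floors, or none, left its brightest probe set, 1427419_x_at, at a log2 ratio of -1.26. Every Ccr9 probe set has an x or a suffix, so omitting such probe sets where another exists left none to replace it. The median over the 6 receptors stayed above 0, and its lowest value was 0.15 with the floor at percentile 60. Of 70 values of single probe sets under the alternatives, 61 moved by less than the probe error, 9 moved by more, and no value past 2-fold changed sign. With the floor at percentile 60, Ccr9 probe set 1421919_a_at was under the floor on both arrays (0.031, against -0.89 as reported) and 1421920_a_at was under 2-fold (-0.96). Low signal limits Ccr1, Ccr4, Ccr10, Cx3cr1, the DBA/1 side of Ccr9 probe set 1421919_a_at and the C57BL/6 side of Ccrl2. Probe sequences were not at hand, so sequence differences between the strains under the probes were not tested.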

Other observations

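Genes of T cell states that these receptors are used to mark, not only of T helper lineages, were measured on the same arrays. Of 19 measured, 17 had a signal above the floor, 6 with a log2 ratio above 0 and 11 below 0, and the median was -0.24. Of all genes tested, 60.6% lay above 0, 3.84% passed 2-fold upward in DBA/1 and 1.90% passed it downward. Itgae, the integrin chain that binds E-cadherin, was the gene at least 2-fold higher in DBA/1, at 123 in DBA/1 and 43.6 in C57BL/6 (log2 ratio 1.50), with the C57BL/6 signal near the floor. As deposited, Ifng (interferon gamma) was the gene at least 2-fold lower, at 66.0 in DBA/1 and 173 in C57BL/6 (log2 ratio -1.39). The Th1 regulator Tbx21 was just under 2-fold, at 59.2 in DBA/1 and 117 in C57BL/6 (log2 ratio -0.98), and 2 genes of the list were at least 2-fold lower after median centring, quantile normalization or lowess. In the same samples Cxcr3 lay at -0.74, the natural killer cell markers at a median of -1.16 with Gzmb going the other way (0.91), and the CD8 T cell markers at a median of -1.45. The Th17 cytokine gene Il17a had 43.5 in DBA/1 and 13.3, under the floor, in C57BL/6; it was chosen with its value known. The cytokine genes that mark Th2 cells beside Ccr4, Il4 and Il13, were also chosen with their values known. Il4 read 61.4 in DBA/1 and 48.1 in C57BL/6 (log2 ratio 0.35), and both Il13 signals lay under the floor. Gata3, a Th2 regulator likewise named with its value known, went the other way from Il4. It read 157 in DBA/1 and 181 in C57BL/6 (log2 ratio -0.20).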
